A study of Mus musculus with 4 samples.

Results

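The matrix metalloproteinases (Mmp genes), the ADAM and ADAMTS proteases and the tissue inhibitors of metalloproteinases (Timp genes) were followed in primary mesenchymal stem cells from mouse bone marrow. The members were the gene symbols made of Mmp, Adam, Adamts or Timp, a number and at most 1 further letter. This rule found 79 of the 24319 genes used, namely 23 Mmp, 33 Adam, 19 Adamts and 4 Timp genes. It used names only and no measured value, but it was chosen with earlier results of these data known. Polyadenylated RNA was sequenced after 4 days of culture in 4 libraries, 1 for each group: Kdm4b knockout (KO) cells under osteogenic induction, wild-type (WT) cells under osteogenic induction, KO cells in control medium and WT cells in control medium. Kdm4b encodes a demethylase of lysine residues on histone H3, and osteogenic induction is a medium that drives stromal cells towards osteoblasts. The sources used here do not give how the gene was deleted, the make-up of the induction medium, or the age, sex and number of the animals. Values are FPKM, fragment numbers scaled to transcript length and to the mapped fragments of the library, so levels of different genes are per length. Ratios between libraries still varied with transcript length, as given below, so levels of different genes can be set side by side only roughly.

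MMPs are zinc-dependent proteases, mostly secreted as inactive proenzymes, that cut collagens and other matrix proteins. ADAMs are membrane proteases that release the outer parts of other membrane proteins, and ADAMTS enzymes are secreted relatives that cut proteoglycans and trim procollagens. TIMPs bind the active site of these enzymes and block it. In bone, the collagenase Mmp13 is made by osteoblasts and hypertrophic chondrocytes and the membrane protease Mmp14 by osteoblasts and osteoclasts, and Mmp14 together with Timp2 activates the Mmp2 proenzyme.

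Each group held 1 library, so no value below has a check against the spread between cultures, and no p-value is given. Each difference is a log2 ratio after 1 was added to both FPKM values, which makes it too small for low genes. A gene with at least 1 FPKM in a library of the pair passed the size rule, as higher or lower, with a ratio of at least 1 in size. Kdm4b itself was at 4.26 FPKM in the induced KO-labelled library, 5.83 in the induced WT-labelled library, 4.30 in the control KO-labelled library and 4.60 in the control WT-labelled library. Both KO values lay below both WT values by a small margin, and no loss of the transcript was seen, so all directions are between libraries as labelled. The induced WT-labelled library stood apart in the sex of the animal, with Xist, the RNA of the inactive X chromosome, at 0.0621 FPKM against 21.6 to 30.5 FPKM in the other 3 libraries, and with the Y-linked Ddx3y at 28.7 FPKM against at most 0.0208 FPKM. In both comparisons with that library, sex, the animals the cells came from and the compared condition cannot be told apart. The libraries also held macrophage RNA, with 10 of 10 macrophage markers found above 1 FPKM in every library and a summed level of 8725, 8128, 9366 and 10285 FPKM in the induced KO, induced WT, control KO and control WT libraries. Lyz2 alone made up 6734, 6763, 6915 and 7937 FPKM of these sums, so they mostly follow that gene. The 10 stromal markers summed to 1213, 2337, 1047 and 734 FPKM in the same order, and Lepr, a marker of marrow stromal cells, stayed at or below 0.271 FPKM. In such mixtures, fewer cells of a type and less RNA per cell cannot be told apart.

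Of the 79 members, 35 reached 1 FPKM in at least 1 library, or 44.3% beside 50.6% of all genes. They were 15 of 23 Mmp, 9 of 33 Adam, 8 of 19 Adamts and 3 of 4 Timp genes. The other 44 were silent by this measure, and 17 of them were listed at 0 in every library. Just inside the limit lay Mmp15, Adamts14 and Adam33, with highest values of 1.21, 1.33 and 1.33 FPKM. Just outside it lay Adamts6, Adam22 and Adamts7, with highest values of 0.968, 0.792 and 0.720 FPKM. The silent genes included 24 Adam genes, many of which are known from the testis, such as Adam2, listed at 0 in every library, and Adam3, at 0.189 FPKM or less. Mmp9, the gelatinase of osteoclasts and neutrophils, reached only 0.0693, 0.0816, 0.314 and 0.464 FPKM in the induced KO, induced WT, control KO and control WT libraries. Of 7 neutrophil genes, S100a9, Ngp and Mpo were listed at 0 in all libraries, while S100a8 was at 0.721 to 5.78 FPKM and Camp at 0.143 to 2.30 FPKM. Of the osteoclast markers Calcr was listed at 0 while Ctsk was at 29.7 to 36.9 FPKM. Timp4 was at 0.0786 FPKM in the induced KO-labelled library and listed at 0 elsewhere.

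**Figure D1:**
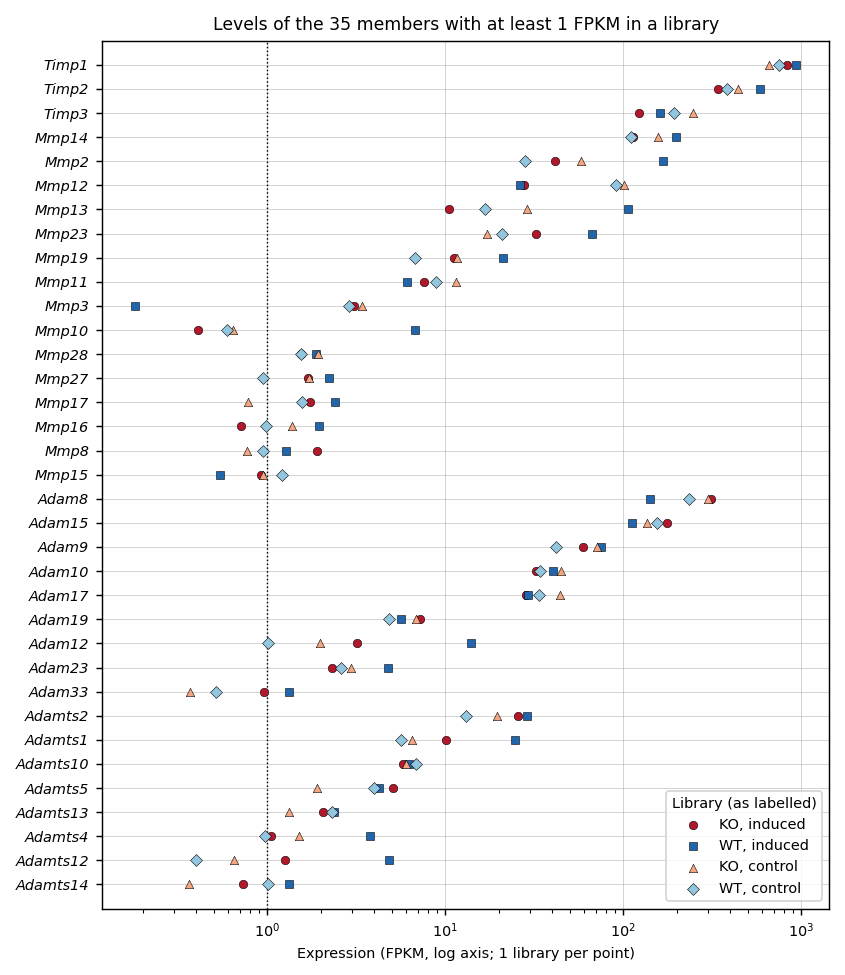
Levels of the 35 members with at least 1 FPKM in a library, in FPKM on a log axis, with 1 point per library and genes grouped by family and ordered by mean level; the dotted line marks 1 FPKM. The 3 Timp genes lie above 100 FPKM in every library, and for Mmp13, Mmp2, Mmp10, Adam12 and Adamts12 the point of the induced WT-labelled library lies far to the right of the other 3.

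Timp1 and Timp2 were the most abundant members in every library. Timp1, a secreted inhibitor that also acts as a growth factor, was at 834 FPKM in the KO-labelled library and 940.1 FPKM in the WT-labelled library under induction, and at 663 and 749.9 FPKM in control medium. It ranked above 99.4% to 99.7% of all genes in each library. Timp2, which helps to activate Mmp2, was at 341 and 588 FPKM in the induced libraries labelled KO and WT and at 441 and 381 FPKM in the control libraries. Its highest value was that of the induced WT-labelled library. Timp3, which stays bound to the matrix and also blocks ADAM17 and aggrecanases, was at 123 and 161 FPKM in the induced libraries labelled KO and WT and at 246 and 193 FPKM in the control ones. Both of its induced values lay below both control values. Transcript levels of the 4 Timp genes summed to 1298, 1689, 1350.1 and 1324 FPKM in the induced KO, induced WT, control KO and control WT libraries, and those of the 23 Mmp genes to 258, 611, 398 and 294 FPKM. The Timp sum was thus 5.04 times the Mmp sum in the induced KO-labelled library, 2.76 times in the induced WT-labelled library, 3.39 times in the control KO-labelled library and 4.50 times in the control WT-labelled library. Such a quotient of transcript levels is not a measure of protease activity, and no length trend was removed from it.

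Among the Mmp genes, Mmp14, a transmembrane protease that cuts collagen at the cell surface, held the largest share of the Mmp sum in every library, 44.3% and 32.5% in the induced libraries labelled KO and WT and 39.5% and 37.7% in the control ones. Its level was 114 and 199 FPKM under induction and 157 and 111 FPKM in control medium, in the same order. Mmp2, the gelatinase that Mmp14 activates, was at 41.5 FPKM in the induced KO-labelled library, 168 FPKM in the induced WT-labelled library, 58.2 FPKM in the control KO-labelled library and 28.1 FPKM in the control WT-labelled library. The induced WT-labelled library was far above the other 3, and in control medium the KO-labelled library was the higher of the pair. Mmp13, the main collagenase of mouse bone and cartilage, was at 10.5 and 107 FPKM in the induced libraries labelled KO and WT and at 28.9 and 16.7 FPKM in the control libraries. The induced KO-labelled library had the lowest and the induced WT-labelled library the highest Mmp13 value of the 4. Mmp12, the metalloelastase of macrophages, was at 27.9 and 26.4 FPKM in the induced libraries labelled KO and WT and at 102 and 90.7 FPKM in the control ones. It split by medium and not by genotype label, and it made up 10.8% and 4.32% of the Mmp sum under induction against 25.5% and 30.8% in control medium. Mmp23, a short membrane-anchored MMP without the hemopexin domain of its relatives, was at 32.4 and 67.0 FPKM in the induced libraries labelled KO and WT and at 17.3 and 20.7 FPKM in the control ones. Both induced values lay above both control values. Mmp19, a secreted MMP of matrix and basement membranes, was at 11.2 and 21.2 FPKM under induction and at 11.6 and 6.74 FPKM in control medium.

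The stromelysins Mmp3 and Mmp10 cut proteoglycans, fibronectin and other MMP proenzymes. Mmp10 was at 0.408 and 6.78 FPKM in the induced libraries labelled KO and WT and at 0.644 and 0.597 FPKM in the control ones, so that it passed 1 FPKM in a single library. Mmp3 was at 3.07 and 0.180 FPKM in the induced libraries labelled KO and WT and at 3.41 and 2.88 FPKM in the control ones, so that the same single library was the low one. Mmp11, the stromelysin that matures inside the cell through furin, ranged from 6.11 FPKM in the induced WT-labelled library to 11.6 FPKM in the control KO-labelled library. The remaining Mmp genes were low. The membrane-type genes Mmp15, Mmp16 and Mmp17 ranged over 0.543 to 1.21, 0.715 to 1.95 and 0.779 to 2.41 FPKM. The secreted Mmp27 and Mmp28 ranged over 0.947 to 2.21 and 1.54 to 1.93 FPKM, and the neutrophil collagenase Mmp8 over 0.773 to 1.90 FPKM.

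**Figure D2:**
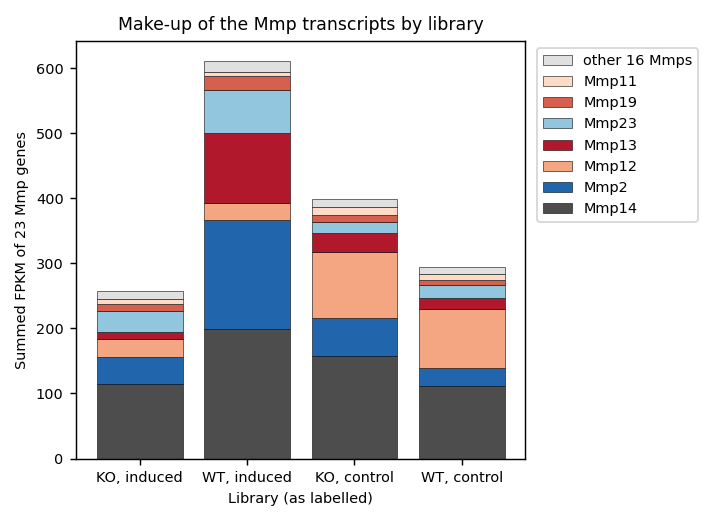
Summed FPKM of the 23 Mmp genes in each library, as stacked bars that start at 0, split into the 7 most abundant Mmp genes and the other 16. The bar of the induced WT-labelled library reaches 611 FPKM, with large Mmp2 and Mmp13 parts, and the Mmp12 part is wide in both control libraries and narrow in both induced ones.

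Mmp3, Mmp10, Mmp12 and Mmp13 are close neighbours on chromosome 9, in a cluster of 10 Mmp genes that runs in the order Mmp13, Mmp12, Mmp1b, Mmp3, Mmp1a, Mmp10, Mmp8, Mmp27, Mmp20 and Mmp7. The 4 genes had 3 different patterns over the libraries, with Mmp13 and Mmp10 highest and Mmp3 lowest in the induced WT-labelled library and Mmp12 low in both induced libraries. Mmp1a, Mmp1b, Mmp7 and Mmp20 were silent, at 0.0254 FPKM or less. The promoters of the 4 neighbours are shown because genes so close together differed in pattern. Each line holds the 250 bases before an annotated transcript start, from RefSeq on GRCm38.p6, all on the plus strand of chromosome 9. The FPKM values were made on the build mm9, so the sequences serve only for their letters. Capitals mark 3 motifs, the AP-1 motif TGANTCA on either strand, the RUNX motif TGTGGT on either strand (on the opposite strand it reads ACCACA) and TATAAA on the strand shown. None of the marked motifs overlap. The stretches are chr9:7272264-7272513 for Mmp13, chr9:7502092-7502341 for Mmp10, chr9:7445572-7445821 for Mmp3, and chr9:7344147-7344396 and chr9:7347124-7347373 for the 2 starts of Mmp12.
Mmp13: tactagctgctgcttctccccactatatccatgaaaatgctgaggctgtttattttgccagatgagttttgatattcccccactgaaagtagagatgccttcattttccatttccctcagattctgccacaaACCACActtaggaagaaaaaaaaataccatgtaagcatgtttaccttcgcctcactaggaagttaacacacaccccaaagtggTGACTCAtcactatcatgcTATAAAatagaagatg
Mmp10: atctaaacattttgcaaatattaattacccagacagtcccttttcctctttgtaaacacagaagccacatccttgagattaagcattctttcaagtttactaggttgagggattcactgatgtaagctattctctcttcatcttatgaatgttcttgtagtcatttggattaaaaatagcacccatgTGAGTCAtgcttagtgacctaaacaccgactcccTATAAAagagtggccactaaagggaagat
Mmp3: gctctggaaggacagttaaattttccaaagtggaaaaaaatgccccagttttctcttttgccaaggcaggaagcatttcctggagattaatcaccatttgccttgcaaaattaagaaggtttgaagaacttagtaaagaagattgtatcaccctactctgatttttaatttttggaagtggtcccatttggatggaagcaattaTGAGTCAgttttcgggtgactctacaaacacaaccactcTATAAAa
Mmp12 start 1: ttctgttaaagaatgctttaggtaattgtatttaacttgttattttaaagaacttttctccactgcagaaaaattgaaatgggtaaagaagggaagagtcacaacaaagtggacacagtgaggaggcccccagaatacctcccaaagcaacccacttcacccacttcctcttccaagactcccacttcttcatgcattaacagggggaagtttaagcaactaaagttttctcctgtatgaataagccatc
Mmp12 start 2: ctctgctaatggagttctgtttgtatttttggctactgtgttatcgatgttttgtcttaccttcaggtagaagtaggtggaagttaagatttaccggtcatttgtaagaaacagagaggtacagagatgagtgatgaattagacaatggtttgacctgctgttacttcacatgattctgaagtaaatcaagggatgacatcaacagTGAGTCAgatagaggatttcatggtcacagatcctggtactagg

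AP-1 is the dimer of Fos and Jun proteins that many MMP promoters bind, and RUNX motifs are bound by Runx2, the transcription factor of osteoblasts that acts on Mmp13. The AP-1 motif began 35 bases before the start of Mmp13, 63 before that of Mmp10, 46 before that of Mmp3 and 44 before the second start of Mmp12. The first start of Mmp12 held none of the 3 motifs. Only Mmp13 of these 4 genes held the RUNX motif, 118 bases before its start. In the cluster as a whole, 8 of 12 annotated starts held the AP-1 motif, beside 6.75% of all 32851 promoters in the table, and 7 of 12 held TATAAA, beside 7.59%. The RUNX motif was found at 4 of 12 starts, beside 14.0% of all promoters. The silent Mmp1a, Mmp1b, Mmp7 and Mmp20 also held the AP-1 motif. The RUNX motif was also found at the silent Mmp1b and Mmp7 and at the low Mmp27. A match of letters does not show that a factor binds. Of the 35 members with at least 1 FPKM, 25 had a promoter in the table, and Mmp2 was not among them.

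**Figure D3:**
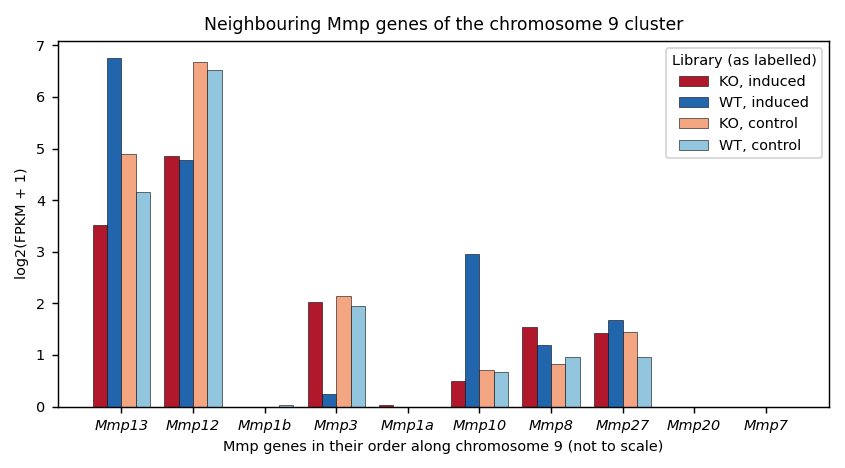
log2(FPKM + 1) of the 10 Mmp genes of the chromosome 9 cluster in their order along the chromosome, not to scale, with 1 bar per library starting at 0. Mmp13 and Mmp10 are highest and Mmp3 is lowest in the induced WT-labelled library, Mmp12 is lower in both induced libraries, and 4 of the genes are near 0 throughout.

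Adam8 and Adam15 were the most abundant Adam genes. Adam8, a surface protease of myeloid cells, was at 313 and 141 FPKM in the induced libraries labelled KO and WT and at 299 and 235 FPKM in the control ones. The induced WT-labelled library was the low one. Adam15, a widely made ADAM with adhesive properties, was at 176 and 112 FPKM under induction and at 136 and 154 FPKM in control medium. Adam9, a sheddase of growth factors, was at 59.5 and 75.1 FPKM in the induced libraries labelled KO and WT and at 71.4 and 42.0 FPKM in the control ones. Adam10, which cuts Notch receptors, was at 32.4 and 40.2 FPKM under induction and at 44.7 and 34.0 FPKM in control medium. Adam17, the enzyme that releases tumour necrosis factor, was at 28.5 and 29.2 FPKM under induction and at 44.2 and 33.9 FPKM in control medium. For Adam9, Adam10, Adam15 and Adam17 the highest library was 1.79, 1.38, 1.57 and 1.55 times the lowest. Adam12, a protease of muscle and connective tissue precursors also called meltrin alpha, was at 3.18 and 14.0 FPKM in the induced libraries labelled KO and WT and at 1.98 and 1.005 FPKM in the control ones, with the highest library 14.0 times the lowest. Its relative Adam19 ranged over 4.80 to 7.24 FPKM, Adam23, which lacks protease activity, over 2.30 to 4.76 FPKM, and Adam33 over 0.368 to 1.33 FPKM.

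Of the Adamts genes, Adamts2, which removes the amino-terminal propeptide of fibrillar procollagens, was the most abundant, at 25.8 and 28.7 FPKM in the induced libraries labelled KO and WT and at 19.7 and 13.1 FPKM in the control ones. Both induced values lay above both control values. Adamts14, which has the same activity, ranged only over 0.364 to 1.33 FPKM. Adamts1, which cuts versican and aggrecan, was at 10.1 and 24.7 FPKM under induction and at 6.47 and 5.65 FPKM in control medium, in the same order. The aggrecanase Adamts4 was at 1.06 and 3.80 FPKM in the induced libraries labelled KO and WT and at 1.51 and 0.974 FPKM in the control ones. The second aggrecanase, Adamts5, was at 5.09 and 4.23 FPKM under induction and at 1.91 and 3.96 FPKM in control medium, so that its low library was the control KO-labelled library. Adamts12, which cuts the cartilage protein COMP, was at 1.26 and 4.81 FPKM in the induced libraries labelled KO and WT and at 0.650 and 0.400 FPKM in the control ones. Adamts10, which acts on fibrillin microfibrils, varied least of all 35 members, with 5.81 and 6.23 FPKM under induction and 5.98 and 6.84 FPKM in control medium. Adamts13, which cuts von Willebrand factor, was at 2.06 and 2.38 FPKM under induction and at 1.32 and 2.32 FPKM in control medium. Mmp23 overlaps Mib2 (8.15 to 12.1 FPKM) and Adam17 overlaps Iah1 (37.0 to 46.8 FPKM). The library kit kept strand, per the labels' protocols, but the sources used here do not say whether counting used it, so the values of overlapping genes are uncertain.

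The first comparison set KO against WT in control medium. Mmp2 was the single member past the size rule, with a log2 ratio of 1.02 and levels of 58.2 and 28.1 FPKM in the libraries labelled KO and WT. Thus 1 of 31 members tested was higher and 0 were lower, beside 0.929% of all genes higher and 1.47% lower (2.4% in either direction). The next largest ratios were those of Adamts5 (-0.77), Mmp13 (0.76), Adam9 (0.75) and Mmp19 (0.71). The median ratio of the 31 members was 0.26, beside -0.02 for all genes tested, and 22 of them had a ratio above 0, beside 48.3% of all genes. The stromal markers lay on the same side, with 4 of 9 higher, 0 lower and a median of 0.63, and their part in the member ratios was not tested. Across all genes the ratio was also larger for longer transcripts (rank correlation 0.51 across 11410 genes, which are not independent, and -0.43 for KO over WT under induction, -0.41 for induction in the libraries labelled KO and 0.44 in those labelled WT). With a pseudocount of 5 the Mmp2 ratio was 0.93 and no member was higher, and with the length trend removed Adamts5 was at -1.002 and counted as lower.

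Under induction, 8 of 34 members were lower in the KO-labelled library than in its WT counterpart and 2 were higher, beside 5.4% of all genes lower and 5.27% higher (10.7% in either direction). The lower ones were Mmp13 (log2 ratio -3.23), Mmp10 (-2.47), Mmp2 (-1.99), Adam12 (-1.84), Adamts12 (-1.36), Adamts4 (-1.22), Adamts1 (-1.21) and Mmp23 (-1.03). They came from all 3 protease families and included a collagenase, a stromelysin and a gelatinase. The higher ones were Mmp3 (1.79) and Adam8 (1.14). In FPKM, Mmp13 was 10.2 times, Mmp2 4.04 times and Adam12 4.41 times as high in the WT-labelled library. Mmp19 (-0.86), Adam23 (-0.80), Mmp14 (-0.79), Timp2 (-0.78) and Mmp16 (-0.78) had the largest ratios within the rule. The 3 Timp ratios lay between -0.78 and -0.17. The median of the 34 members was -0.31, beside -0.02 for all genes tested. Of these members 26 had a ratio below 0, while 48.5% of all genes had one above 0. Across all genes this ratio tended to be lower for longer transcripts (rank correlation -0.43).

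Other markers moved between the same libraries. Of 6 osteoblast markers, 4 were lower and 1 was higher in the KO-labelled library, with Ibsp, a bone matrix protein, at 1.98 FPKM in it against 177 FPKM in the WT-labelled library. Of 9 stromal markers, 2 were lower and 1 was higher, and of 10 macrophage markers 1 was higher, namely Cd14 at 212 FPKM against 37.8 FPKM in the WT-labelled library. Summed chondrocyte markers were at 23.4 and 4.94 FPKM in the libraries labelled KO and WT, of which Col2a1 made up 19.0 and 0.773 FPKM, while Sox9 was at 2.51 and 3.71 FPKM and 1 of 3 tested markers passed the rule. Summed adipocyte markers were at 419.6 and 172 FPKM, of which Fabp4 made up 414 and 171 FPKM. Cell cycle genes summed to 42.2 and 17.9 FPKM and endothelial markers to 4.51 and 1.85 FPKM in the libraries labelled KO and WT. Emcn made up 3.43 and 0.958 FPKM of the endothelial sums, while Kdr was at 0.461 and 0.178 FPKM and Pecam1 at 0.265 and 0.379 FPKM. The part of these markers in the member ratios was not tested. Set against the control WT-labelled library instead, an alternative added after seeing the data, the induced KO-labelled library had 1 of 32 members higher and 1 lower, namely Adam12 and Mmp12, beside 1.43% of all genes higher and 1.4% lower, and 0 of the 10 members named above as lower or higher kept its call. The ratios of 6 of the 8 lower members were above 0 against that library, namely Mmp2, Mmp23, Adam12, Adamts1, Adamts4 and Adamts12, Mmp13 was at -0.63, and Mmp10 was under 1 FPKM in both. That pair differs both in genotype label and in medium. With a pseudocount of 5, Mmp23, Adamts1, Adamts4 and Adamts12 of the lower and Mmp3 of the higher members no longer passed the size rule. Mmp3, Adamts4 and Adamts12 were under 5 FPKM in both libraries, and Adamts12 was at -0.88 with the length trend removed.

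**Figure D4:**
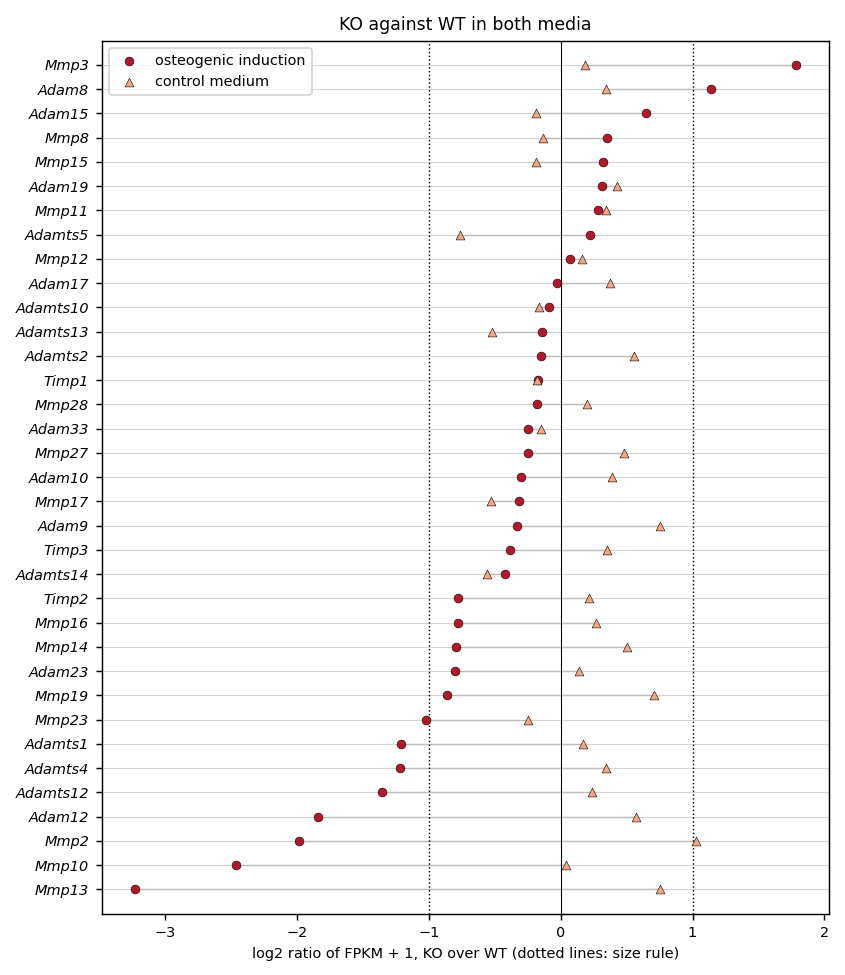
log2 ratio of FPKM + 1, KO over WT, for the 35 members, with circles for osteogenic induction and triangles for control medium, ordered by the ratio under induction; dotted lines mark a ratio of 1 in size. Under induction 8 members lie left of -1 and 2 lie right of 1, while in control medium only Mmp2 reaches 1.

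The last comparisons set induction against control for each genotype label, with values from separate deposited tables. In the libraries labelled KO, 1 of 31 members was higher, namely Adamts5 (1.06), and 2 were lower, namely Mmp12 (-1.83) and Mmp13 (-1.38), beside 1.54% of all genes higher and 1.07% lower (2.61% in either direction). Timp3 (-0.997) lay just short of the rule there. In the libraries labelled WT, 10 of 35 members were higher under induction and 2 were lower, beside 7.22% of all genes higher and 7.95% lower (15.2% in either direction). The higher ones were Adam12 (log2 ratio 2.91), Mmp13 (2.60), Mmp2 (2.54), Mmp10 (2.28), Adamts12 (2.05), Adamts1 (1.95), Mmp23 (1.65), Mmp19 (1.52), Adamts4 (1.28) and Adamts2 (1.08). The lower ones were Mmp12 (-1.74) and Mmp3 (-1.72). The median member ratio was -0.05 in the libraries labelled KO and 0.41 in those labelled WT, beside -0.04 and -0.03 for all genes.

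Mmp12 was the single member past the rule in the same direction for both labels. It had 27.9 FPKM in the induced against 102 FPKM in the control KO-labelled library, and 26.4 FPKM in the induced against 90.7 FPKM in the control WT-labelled library. The log2 ratio was -1.83 in the libraries labelled KO and -1.74 in those labelled WT, of which the latter pair holds the library that stood apart in sex. The part of sex in these ratios was not tested. Of 10 macrophage markers, 0 passed the rule in the libraries labelled KO, with a median ratio of -0.31, and 3 were lower and 1 was higher in those labelled WT, with a median of -0.46. Their part in the Mmp12 ratios was not tested. Mmp13 went opposite ways, with 10.5 FPKM in the induced and 28.9 FPKM in the control KO-labelled library, and with 107 FPKM in the induced and 16.7 FPKM in the control WT-labelled library. These comparisons share their libraries with those of KO against WT, so their ratios are not independent of them. Of 9 stromal markers, 0 passed the rule in the libraries labelled KO, and 7 were higher under induction and 0 lower in those labelled WT, with a median of 1.54. Of 6 osteoblast markers, 0 were higher and 1 was lower in the libraries labelled KO, and 3 were higher and 1 was lower in those labelled WT. Of 5 osteoclast markers, 2 were lower in the libraries labelled KO, namely Atp6v0d2 and Dcstamp, and 0 passed the rule in those labelled WT. Of 4 cell cycle genes, 0 passed the rule in the libraries labelled KO and 4 were lower in those labelled WT. The part of these markers in the member ratios was not tested. The call of Adamts2 was lost with the length trend removed (0.65) and with a pseudocount of 5 (0.90), where Mmp3, Adamts4, Adamts12 and, in the libraries labelled KO, Adamts5 were lost as well.

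**Figure D5:**
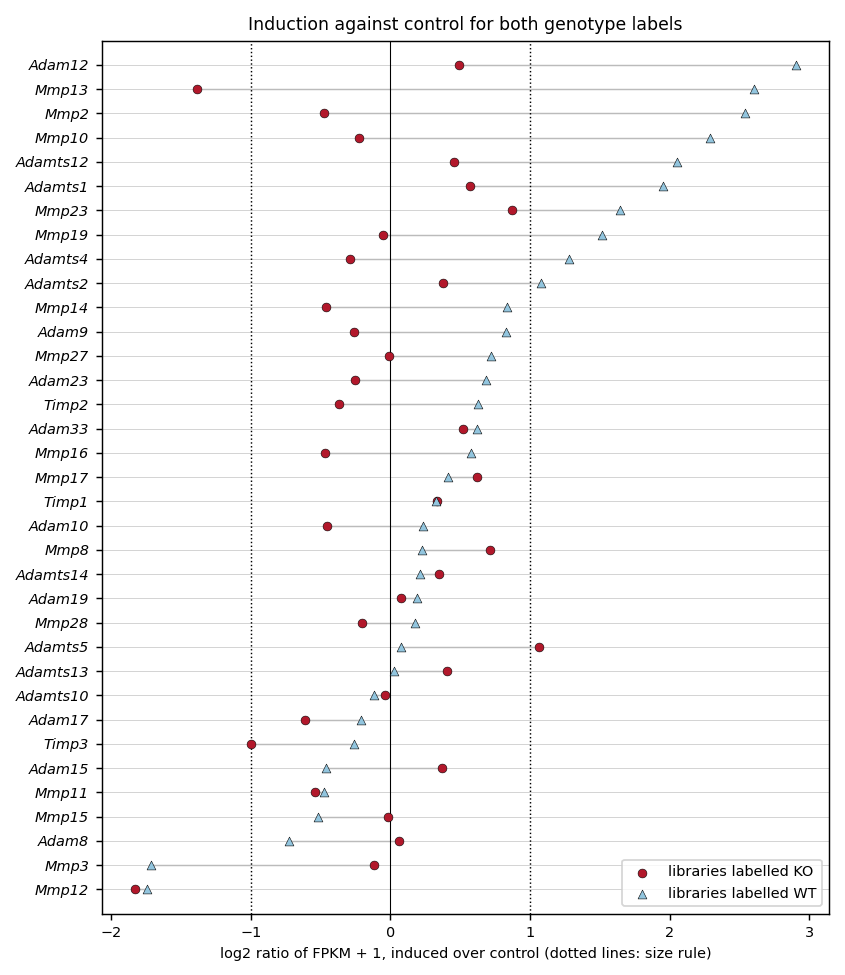
log2 ratio of FPKM + 1, induced over control, for the 35 members, with circles for the libraries labelled KO and triangles for those labelled WT, ordered by the ratio of the libraries labelled WT; dotted lines mark a ratio of 1 in size. The triangles of 10 members lie right of 1, only Adamts5 does so among the circles, and Mmp12 lies left of -1 with both.

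Over all 4 libraries, 14 of the 35 members passed the size rule in at least 1 comparison and 21 in none, beside 18.1% of the 12294 genes at that level passing in at least 1. The induced WT-labelled library was the highest of the 4 for 21 of 35 members (60.0%), beside 37.1% of 12294 genes with at least 1 FPKM in a library, and the control WT-labelled library was the highest for 2 of 35, beside 30.1% of those genes. The induced WT-labelled library was the lowest for 6 members, namely Adam8, Adam15, Mmp3, Mmp11, Mmp12 and Mmp15, or 17.1% beside 37.5% of genes.

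Counts for genes that act with these proteases are set beside the 2.4% of all genes past the rule in control medium and, under induction, the 5.27% higher and 5.4% lower. Of 14 tested regulators, which mature, anchor or inhibit the proteases, 0 passed the rule in control medium, with the largest ratios for Tspan15 (-0.93), a tetraspanin partner of Adam10, and Bsg (-0.50), a membrane inducer of MMPs. Under induction 1 of 13 was higher in the KO-labelled library, namely the Adam10 partner Tspan33 (2.50 against 0.574 FPKM in the WT-labelled library), and 1 was lower, the protease inhibitor Tfpi2 (1.40 against 4.02 FPKM). Reck, a membrane-anchored MMP inhibitor, was at 1.45 and 2.38 FPKM in the induced libraries labelled KO and WT and at 1.69 and 1.19 FPKM in the control ones. Of related metalloproteases and ADAMTS-like genes, 0 of 4 passed the rule in control medium, with Adamtsl4 at -0.48 and Bmp1 at -0.32, and 2 of 5 were lower in the KO-labelled library under induction. These were Pappa, which cuts IGF-binding proteins, at 2.65 against 14.7 FPKM in the WT-labelled library, and Tll1, a procollagen C-proteinase, at 0.369 against 2.18 FPKM.

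Of 17 tested matrix substrates, 2 were higher and 1 was lower in the control KO-labelled library, namely Col2a1 (1.90), Col3a1 (1.41) and the lower Comp (-1.25). Under induction 4 were higher and 5 lower in the KO-labelled library, led by Col2a1 (3.50), Thbs1 (-1.96), Spp1 (-1.96) and Col4a2 (1.72). Aggrecan (gene Acan), the substrate after which aggrecanases are named, was at 0.00692 FPKM or less, while versican (Vcan) was at 12.9 and 10.7 FPKM in the induced libraries labelled KO and WT and at 12.0 and 6.98 FPKM in the control ones. Of the membrane proteins that ADAMs release, 0 of 20 passed the rule in control medium, with Hbegf at -0.76 and Mertk at 0.73. Under induction 2 of 19 were higher in the KO-labelled library, namely Ereg (1.44) and Tnf, at 12.4 against 4.79 FPKM in the WT-labelled library, and 1 was lower, Cdh2 (-1.19).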

How the data were processed

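Per the file headers, the deposited values were FPKM, in 2 tables with 24346 entries each, 1 for each medium. TopHat, Cufflinks and the build mm9 are named in the submitters' processing notes; their versions, the annotation, strand use and the scaling between tables are not given in the sources used here. Columns were matched to samples by name. The sheet that held the control columns carried OI in its name, the label of the induced samples, and this mismatch was not resolved. In each table, 27 entries named by a date instead of a gene were left out (at most 0.169% of a library's summed FPKM), leaving 24319 genes. No counts were used, so depth and counting error are unknown. Relative depth was estimated from the most frequent ratio of values below 0.15 FPKM to those of the control library labelled WT. It was 1.09, 0.861 and 0.878 in the induced KO, induced WT and control KO libraries. The bin of that ratio held 68 of 1486, 22 of 1110 and 49 of 1363 genes in the same order, so these estimates are rough. Log2 ratios of FPKM + 1 were computed over the whole table with Python 3.11.15, pandas 2.3.3 and statsmodels 0.14.6. The code was run on simulated data with 200 genes of known fold. That simulation held no noise, so it checked the arithmetic of the size rule only. Named were all Timp genes, members past the size rule and the 5 most abundant members of each family in full, other members by range, and from each related list up to 4 genes past the rule per medium or the 2 largest; Kdm4b, marker genes and a few others were added after values were seen. Members, lists, motifs and rules were chosen with earlier results of these data known. Alternatives were pseudocounts of 0.1 and 5, no minimum or one of 5 FPKM, median-ratio scaling and removal of a lowess trend on the longest GENCODE transcript, known for 35 of 35 members and 96.3% of genes. An additive fit over the 4 libraries, with 1 residual degree of freedom, was not run, since it takes the KO effect to be equal in both media.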

Additional observations from a re-analysis of the deposited data

Results flagged for a closer look

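Mmp2 passed the size rule in opposite directions in the 2 media, with a log2 ratio of KO over WT of -1.99 under induction and 1.02 in control medium. Mmp13 passed it in opposite directions for the genotype labels, with a log2 ratio of induced over control of -1.38 in the libraries labelled KO and 2.60 in those labelled WT. With 1 library per group, neither difference between groups was tested. Each pair of values includes the induced library labelled WT, which stood apart in sex.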

How the results depend on the processing

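Each of the counts of members past the size rule was 0 to 10, so small shifts move them. The counts printed below are those with the larger relative shifts, and smaller losses and gains occurred as well. For KO over WT under induction, Adamts12 left the lower members with the length trend removed. Adamts4 and Adamts12 left them with a minimum of 5 FPKM. For induction in the libraries labelled WT, Adamts2, Adamts4 and Adamts12 left the higher members with a pseudocount of 5. Adamts2 also left them with the length trend removed. With a pseudocount of 5, the counts of higher and lower members under induction for KO over WT were 1 and 4. In control medium the higher count was then 0, beside 0.456% of all genes. For induction over control the same pseudocount gave a lower count of 1 in the libraries labelled WT and a higher count of 0 in those labelled KO. With a pseudocount of 0.1, the lower count for KO over WT in control medium was 2, beside 2.80% of all genes. The pseudocount of 1 had given 0, beside 1.47%. The higher count for induction over control in the libraries labelled KO was 3 with a pseudocount of 0.1. With a minimum of 5 FPKM, the higher count for KO over WT under induction and the lower count for induction over control in the libraries labelled WT were both 1. With the length trend removed, the lower count for KO over WT in control medium was 1. With the control library labelled WT in place of the induced one, an alternative added after seeing the data, the higher and lower counts for KO over WT were both 1, beside 1.43% and 1.4% of all genes. Among members past the rule in either setting, the ratio then turned from below to above 0 for Mmp2 (0.55), Mmp23 (0.62), Adam12 (1.06), Adamts1 (0.74), Adamts4 (0.058) and Adamts12 (0.69). It turned from above to below 0 for Mmp12 (-1.67), while Mmp3, Mmp13 and Adam8 kept their sign without passing the rule. Some members within the rule in both settings changed sign as well. Mmp19 turned to above 0, at 11.2 FPKM in the induced KO-labelled and 6.74 FPKM in the control WT-labelled library. Mmp11 turned to below 0, at 7.63 and 8.90 FPKM in the same order. Beyond the fewer genes that a minimum of 5 FPKM keeps and the smaller ratios that a larger pseudocount gives low genes, the cause was not tested. Median-ratio scaling and no minimum level left the 8 counts as they were. Of the 26 single ratios past the rule, 11 fell below it with a pseudocount of 5 and 2 with the length trend removed, and 20 of them could be recomputed with a minimum of 5 FPKM; with the pseudocounts, minimum levels, scaling and length trend, none of the 26 changed sign. No paired analysis was possible because each group held 1 library. Depth in fragments is unknown, which limits members near 1 FPKM most.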

Other observations

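The ratio of KO over WT under induction minus that in control medium compares the KO difference between media within each deposited table. It was -1 or lower for 11 of the 35 members with at least 1 FPKM and 1 or higher for 1, beside 11.9% and 13% of the 12294 genes at that level. The lowest values were those of Mmp13 (-3.99), Mmp2 (-3.01), Mmp10 (-2.51) and Adam12 (-2.42), and the single high value was that of Mmp3 (1.60). Adamts12 (-1.59), Adamts4 (-1.57), Mmp19 (-1.57), Adamts1 (-1.38), Mmp14 (-1.29), Adam9 (-1.09) and Mmp16 (-1.05) made up the rest. Timp2 (-0.99) and Adamts5 (0.99) lay just short of 1 in size. No test of this difference could be made with 1 library per group, and it includes the induced library labelled WT, which stood apart in sex.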
